A study of Mus musculus with 2 samples.

Results

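The genes described here are the nuclear-encoded genes of the mitochondrial respiratory chain in leukocytes of a mouse melanoma. They were chosen by name alone: all gene symbols of the deposited gene list that begin with Nduf, Sdh, Uqcr, Atp5, Cox4, Cox5, Cox6, Cox7 or Cox8, which gave 98 of 32285 listed genes. By complex, 47 of them belong to complex I, 8 to complex II, 8 to complex III, 18 to complex IV and 17 to complex V. The names take in 12 assembly factors and 8 isoforms known mainly from muscle, testis, lung or vessel walls (Cox4i2, Cox6a2, Cox6b2, Cox7a1, Cox7b2, Cox8b, Cox8c and Ndufa4l2). Ndufa4 was counted with complex I by its name, although its protein is now known as a subunit of complex IV. The 13 genes of the mitochondrial genome whose symbols begin with mt- served as the comparison.

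The respiratory chain sits in the inner mitochondrial membrane. Complexes I and II pass electrons from NADH and succinate to ubiquinone, complex III hands them to cytochrome c, complex IV gives them to oxygen, and complex V uses the resulting proton gradient to make ATP. Most subunits are encoded in the nucleus and imported, a few catalytic ones are encoded in mitochondrial DNA, and assembly factors help to join the parts without staying in the finished complex. In macrophages and T cells, use of the chain is known to differ with activation state, and IL-4-activated macrophages are known for oxidative metabolism.

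Single-cell RNA was measured in CD45-positive cells (CD45 is a surface protein of leukocytes) sorted from subcutaneous tumours of B16F10, a mouse melanoma cell line, in wild-type mice. Mice behind the control library had received macrophages grown from bone marrow and left untreated. Those behind the IL4 library had received such macrophages after treatment with IL-4. There was 1 library per group. The protocol text of both libraries names IL-4-treated cells, so the groups rest on the treatment field alone, and neither the animals per library, their age and sex, nor the captured transcript end are stated in the labels.

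The control library held 8994 barcodes and the IL4 library 13873, with a median of 9156.5 and 8213 unique molecular identifiers (UMIs, 1 per captured RNA molecule) per barcode. The libraries shared 23 barcode sequences. Filters kept 8937 and 13762 barcodes, and gates on marker genes assigned 4392 and 6973 of these to 11 leukocyte types. Each gate's own 8 markers were all detected in both libraries, and over all gates the melanoma markers summed to at most 230.0 CPM, fibroblast and endothelial markers to at most 306 CPM and red cell markers to at most 1.20 CPM. The non-classical monocyte gate held a higher median of classical monocyte markers (48.7 UMIs per 10000 in the control library) than of its own (12.95), so its name is that of the gate only. Among barcodes with either Xist or Y-linked UMIs but not both, 36.7% in the control library and 10.9% in the IL4 library were Y-linked. Both libraries thus held cells of both sexes in unequal shares. Of the 11 types, 9 had at least 50 cells in each library and were compared. Levels are UMIs summed over the cells of a gate and given as counts per 1000000 UMIs of that gate (CPM). Intervals are exact 95% intervals that cover counting error only, and a member counts as apart where (CPM + 1) differed at least 1.5-fold. With 1 library per group no p-value can be had. Of the 98 members, 34 share exon bases with a gene of the other strand and 5 with a gene of the same strand (GENCODE M21), and the labels do not state whether strand was used in counting.

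The nuclear factors NRF1, ETS-family GABP and YY1 are known regulators of respiratory chain genes, so the promoters of 5 members are printed to show each kind of match and a member with none. Promoters from RefSeq (GRCm38.p6, the mm10 assembly) reach from 250 bases before to 50 bases after the gene start, and 79 of the 98 members matched by symbol. Capitals mark matches on either strand to GCGCATGCG (NRF1), CCGGAAGT (ETS) or AAGATGGC (YY1). Cox6a1 lies at chr5:115348909-115349208, Uqcr11 at chr10:80406772-80407071, Atp5j at chr16:84834927-84835226, Cox8a at chr19:7217567-7217866 and Sdhaf1 at chr7:30322326-30322625, all on the minus strand and printed 5′ to 3′ in the direction of the gene.
Cox6a1: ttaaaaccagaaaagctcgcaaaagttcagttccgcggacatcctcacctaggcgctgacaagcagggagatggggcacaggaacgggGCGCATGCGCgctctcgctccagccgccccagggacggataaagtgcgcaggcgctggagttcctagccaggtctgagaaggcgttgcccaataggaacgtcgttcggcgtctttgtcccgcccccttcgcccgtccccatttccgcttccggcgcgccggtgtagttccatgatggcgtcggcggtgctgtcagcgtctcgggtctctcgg
Uqcr11: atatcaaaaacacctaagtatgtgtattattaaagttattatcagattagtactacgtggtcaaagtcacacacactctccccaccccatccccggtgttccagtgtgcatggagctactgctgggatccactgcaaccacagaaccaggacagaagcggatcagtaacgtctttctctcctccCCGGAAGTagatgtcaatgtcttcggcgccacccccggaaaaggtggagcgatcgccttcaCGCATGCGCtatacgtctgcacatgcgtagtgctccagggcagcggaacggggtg
Atp5j: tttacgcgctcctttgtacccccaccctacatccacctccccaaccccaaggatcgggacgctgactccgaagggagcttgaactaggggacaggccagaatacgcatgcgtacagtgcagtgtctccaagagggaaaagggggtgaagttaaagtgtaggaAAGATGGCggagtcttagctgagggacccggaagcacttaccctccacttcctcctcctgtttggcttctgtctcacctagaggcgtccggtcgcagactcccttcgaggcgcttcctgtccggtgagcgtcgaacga
Cox8a: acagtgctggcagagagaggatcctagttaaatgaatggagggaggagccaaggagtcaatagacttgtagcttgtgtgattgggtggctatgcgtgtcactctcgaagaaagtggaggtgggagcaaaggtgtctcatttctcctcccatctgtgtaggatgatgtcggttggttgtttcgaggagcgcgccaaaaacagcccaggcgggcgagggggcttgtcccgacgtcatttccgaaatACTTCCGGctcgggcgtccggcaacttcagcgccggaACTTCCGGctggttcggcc
Sdhaf1: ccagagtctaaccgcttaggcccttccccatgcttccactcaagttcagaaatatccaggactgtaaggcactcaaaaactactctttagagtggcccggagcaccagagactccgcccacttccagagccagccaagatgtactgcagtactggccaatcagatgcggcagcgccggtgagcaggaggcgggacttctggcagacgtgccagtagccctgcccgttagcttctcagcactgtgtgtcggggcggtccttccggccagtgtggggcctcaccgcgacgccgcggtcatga
The run in Cox6a1 is a palindrome and reads as an NRF1 match on both strands. Uqcr11, a small complex III subunit, has an ETS and an NRF1 match. Atp5j, a stalk subunit of complex V, has a YY1 match, and Cox8a, a complex IV subunit, has 2 ETS matches. Sdhaf1, a complex II assembly factor, has none. In GENCODE M21 Sdhaf1 spans chr7:30321406-30323895, so its printed window lies inside that gene and not at its start. Of the 79 members, 10 (12.7%) held an NRF1 match, against 1.75% of all 32851 promoters of the same length. An ETS match was in 5 members (6.33%, against 3.89% of all), and a YY1 match in 10 (12.7%, against 2.75%). Any of the 3 was in 24 members (30.4%, against 7.96%). Complex I held 8 of the 10 YY1 matches, in 8 of its 40 promoters (20%), and complex V the others, in 2 of 14 (14.3%). None of the 4 tissue-restricted isoforms with a promoter held a match. The set of all promoters was not limited to expressed genes or matched for base content. Whether the excess is particular to respiratory chain genes was therefore not tested. A match is a stretch of letters and not a measured binding site.

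Summed over all members, the respiratory chain took the largest share of RNA in type 1 conventional dendritic cells (cDC1), T cells and, in the control library, macrophages. It took the smallest share in neutrophils. The sum was 17093 CPM in the control library and 16574 CPM in the IL4 library in cDC1, the cross-presenting dendritic cells. Macrophages had 16874 CPM (16803 to 16945) and 15214 CPM (15156 to 15272). T cells had 16695 and 16445 CPM. Type 2 conventional dendritic cells (cDC2) had 15568 and 15220 CPM. In the IL4 library macrophages and cDC2 did not differ beyond their counting intervals, while in the control library macrophages stood above cDC2 and above T cells. This order depended on the scaling. With mt- and ribosomal protein genes left out of the total, T cells had 21699.5 and 21151 CPM. In both libraries they then stood above cDC1 with 21100 and 20584 and above macrophages with 19984 and 17794. On this scaling cDC2 with 18999.7 CPM stood above macrophages in the IL4 library. Classical monocytes had 14966 and 14557 CPM, and natural killer (NK) cells 13608 and 13922 CPM. The non-classical monocyte gate had 12957 and 12845 CPM. Migratory dendritic cells, which carry antigen to lymph nodes, had 11506 and 11439 CPM, and neutrophils 8987 (8822 to 9155) and 7711 (7449 to 7980). The order did not follow the median UMIs per cell throughout: cDC1 had the most UMIs (22403 and 19230) and neutrophils the fewest (3021 and 2470), but NK cells had fewer UMIs (7587 and 7536) than migratory dendritic cells (13772 and 10975.5).

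**Figure D1:**
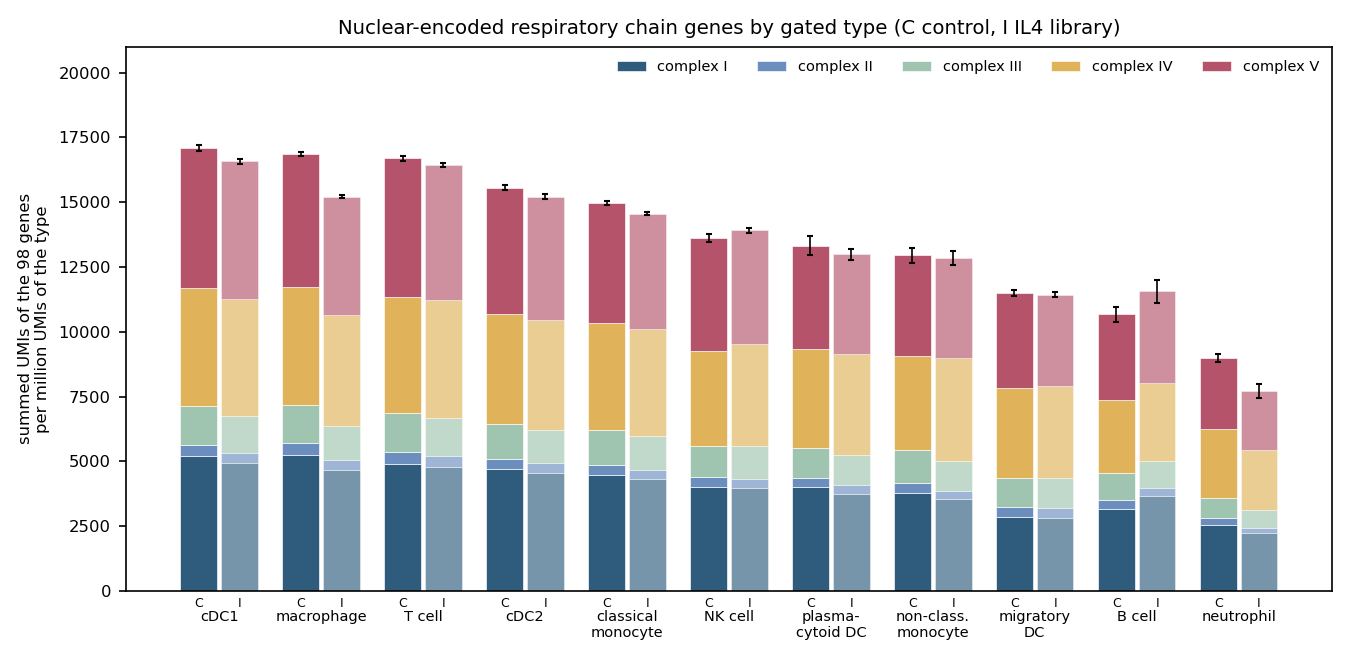
Summed CPM of the 98 members (vertical axis, from 0) in each gated type (horizontal axis), stacked by complex, for the control (C) and IL4 (I) library, with 95% counting intervals on the total. The totals run from 17093 CPM in control cDC1 to 7711 CPM in IL4 neutrophils, and the order of most types is alike in the libraries.

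Among the 90 members with at least 200 UMIs over the 9 types, leaving out the tissue-restricted isoforms, the highest type was macrophages for 31 in the control library and 20 in the IL4 library. It was cDC1 for 24 and 28, and T cells for 22 and 27. The lowest type was neutrophils for 53 and 70 members and migratory dendritic cells for 24 and 15. The highest type was the same in both libraries for 65 of the 90 members, and the lowest for 62. From its lowest to its highest type a member spanned a median of 2.40-fold in the control library and 2.50-fold in the IL4 library.

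**Figure D2:**
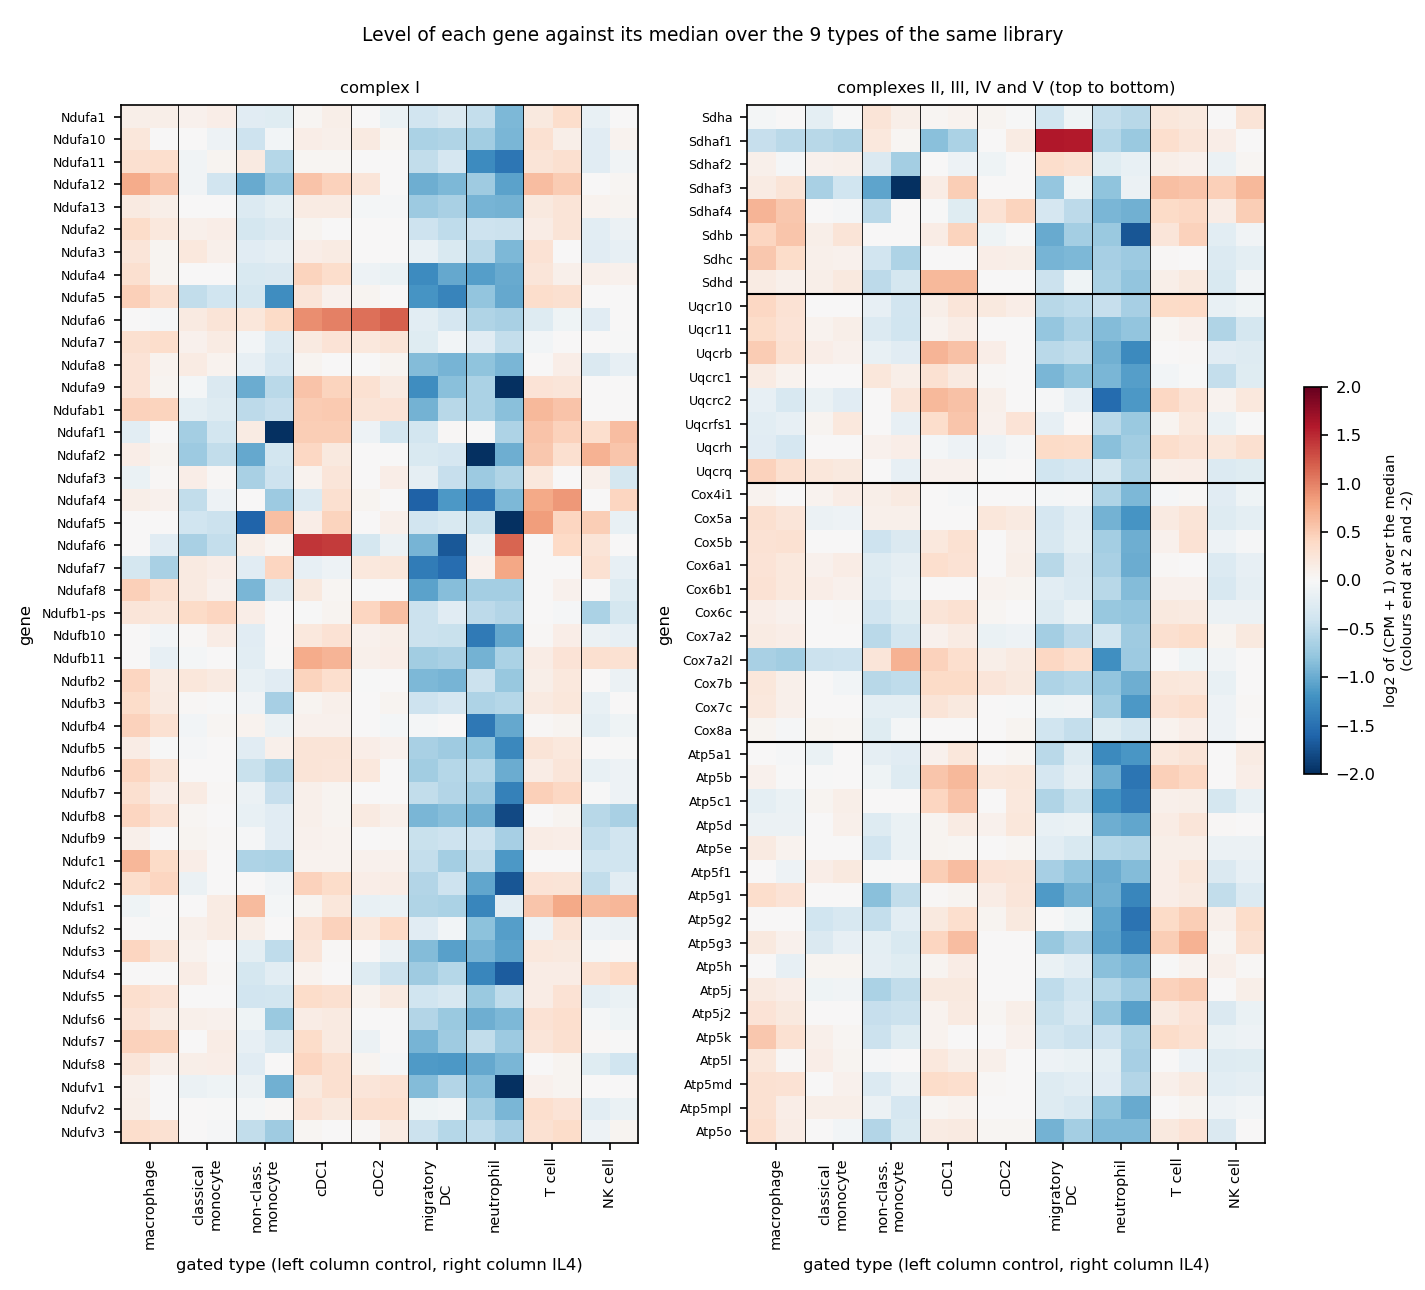
Each member's CPM in each type relative to that member's median over the 9 types (colour, log2), members in rows by complex and the libraries side by side. Drawn are the 90 members with at least 200 UMIs, without the tissue-restricted isoforms. Columns for neutrophils and migratory dendritic cells are mostly blue, below the members' medians, and red marks, among others, Sdhaf1 in migratory dendritic cells and Ndufaf6 in cDC1.

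The complexes kept similar proportions in most types. Complex I made up 31.1% and 30.7% of the members' UMIs in macrophages, and complex V 30.4% and 29.9%. The migratory dendritic cell was the type with the lowest complex I share, 24.8% in both libraries, where the other types lay between 27.6% and 31.7%. Its complex IV share was 30.1% and 30.8%, and its complex II share 3.32% and 3.40%, against 2.54% and 2.39% in cDC2. The assembly factor Sdhaf1 alone made up 146 and 156 of the 381 and 389 CPM of complex II in migratory dendritic cells. Of the 8 complex II members, 1 was at least 1.5-fold higher there than in cDC2 in both libraries and 3 were lower.

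The members with the most UMIs of each complex in macrophages were Ndufa4, Sdhb, Uqcrh, Cox4i1 (Cox8a in the IL4 library) and Atp5e. UMIs were not divided by transcript length, so each is followed across types only. Ndufa4 had 379 and 288 CPM in macrophages, 412 and 354 in cDC1, 126 and 135 in migratory dendritic cells and 140 and 136 in neutrophils. Sdhb, the iron-sulphur subunit of succinate dehydrogenase, had 150.4 and 140.3 CPM in macrophages and 55.1 and 58.7 in migratory dendritic cells. Cox4i1, the regulatory complex IV subunit of most tissues, was flatter, between 413 and 682 CPM in the control library over the 9 types and between 336 and 711 in the IL4 library. Atp5e, the smallest subunit of the F1 head, had 608 and 566 CPM in macrophages and 359.6 and 355.2 in neutrophils. Uqcrh, the hinge protein of complex III, went against the group sum. It had 314 and 298 CPM in macrophages but 482 and 484 in migratory dendritic cells, close to the 470 and 462 CPM of T cells, and 206 and 233 in neutrophils.

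**Figure D3:**
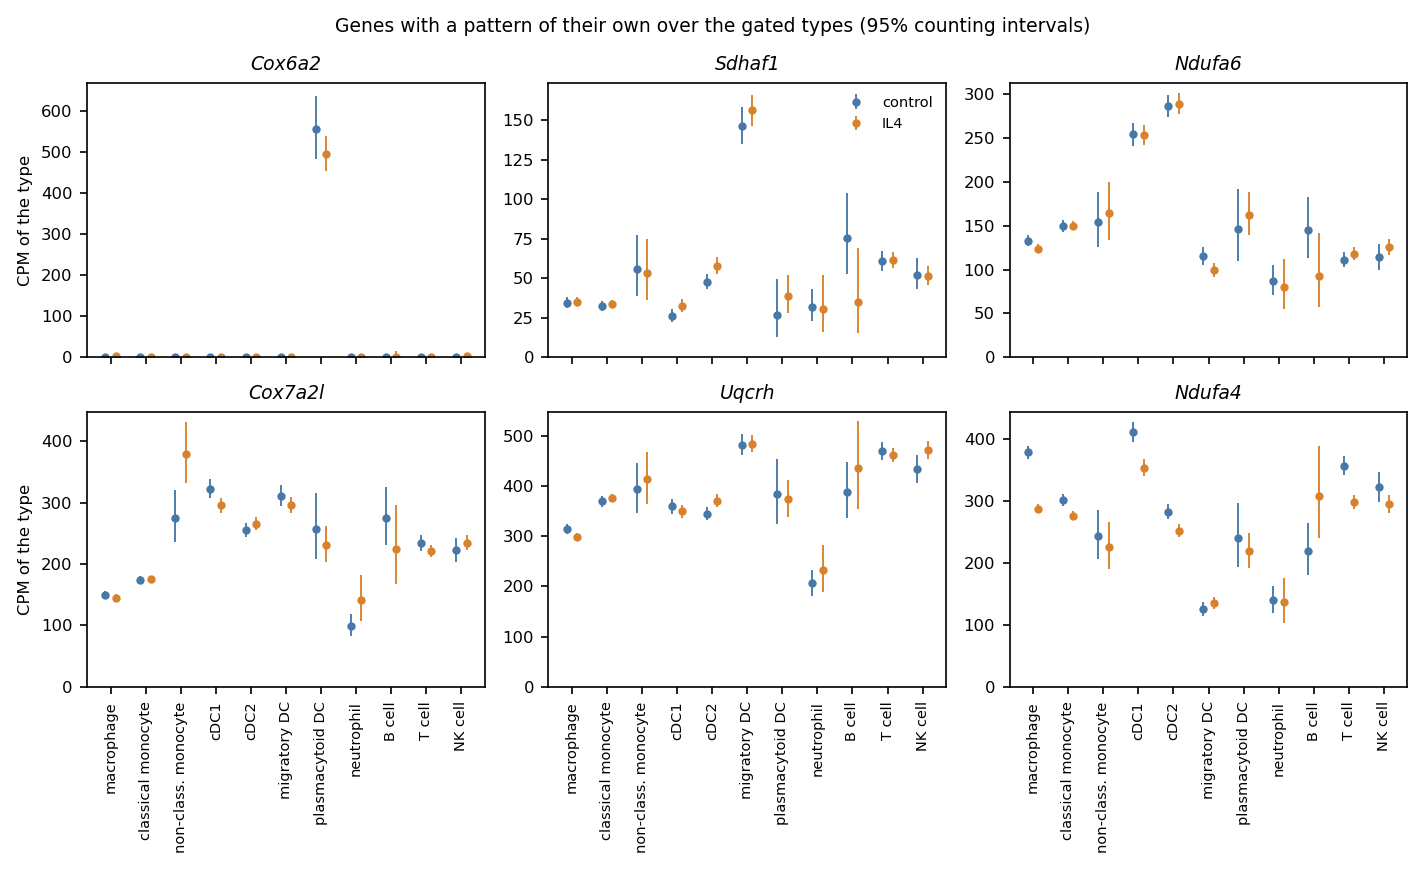
CPM with 95% counting intervals of single members (panels) in each type (horizontal axis) in the control and IL4 library. The panels show Cox6a2, Sdhaf1, Ndufa6, Cox7a2l, Uqcrh and Ndufa4, whose order of types departs from that of the sum: Cox6a2 stands at 556 and 495 CPM in plasmacytoid dendritic cells and near 0 elsewhere.

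The succinate dehydrogenase subunits did not share 1 order of types. Sdha, the flavoprotein that oxidises succinate, had 57.2 and 48.8 CPM in macrophages and 68.5 and 56.3 in T cells. Sdhc, a membrane anchor, had 76.7 and 61.1 CPM in macrophages, the highest of the 9 types in both libraries, and 27.2 and 24.9 in migratory dendritic cells. Sdhd, the other anchor, had its highest levels in cDC1, at 94.0 and 72.1 CPM. Sdhaf1, which helps to insert the iron-sulphur clusters of Sdhb, stood highest in migratory dendritic cells, where Sdhb and Sdhc were low. It had 146 CPM (135 to 159) and 156 (147 to 166) there, and at most 60.9 and 61.5 in the other 8 types. Neutrophils of the IL4 library were the lowest of the 9 types for both Sdhb (28.2 CPM) and Sdhaf1 (30.6).

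Tissue-restricted isoforms were rare, with 1 exception. Cox6a2, the heart and muscle form of a complex IV subunit (chr7:128205435-128206387, minus strand), had 556 CPM (482 to 637) and 495 (454 to 539) in plasmacytoid dendritic cells and at most 3.91 CPM in any other type. Its general counterpart Cox6a1 had 206 and 187 CPM in the same cells and 276 and 240 CPM in macrophages. A Cox6a2 UMI was seen in 27 of 30 plasmacytoid dendritic cells (90%, 73.5 to 97.9) of the control library and 73 of 91 (80.2%, 70.6 to 87.8) of the IL4 library. In NK cells the share was 1.83% and 2.12% and in macrophages 0.961% and 2.22%, at median depths of 7587 and 7536 and of 10425 and 9126 UMIs against 11406.5 and 10314 in plasmacytoid dendritic cells. After thinning each cell to 1000 UMIs, which left out at most 8 cells of a type and library, the plasmacytoid shares were 33.3% and 38.5%, and all other types were at or under 0.457%. Over all kept barcodes, gated or not, the 45 control and 143 IL4 barcodes with at least 5 plasmacytoid markers held 85.1% and 85.9% of all Cox6a2 UMIs. Itgad, which overlaps on the other strand, had 21.7 and 12.9 CPM in these cells. The plasmacytoid gate had only 30 control cells, and its median of classical monocyte markers was 57.1 and 44.2 UMIs per 10000.

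The other restricted forms stayed low. Cox6b2, the testis form of Cox6b1, had 16.2 and 16.4 CPM in cDC2 (122 and 135 UMIs), 3.09 and 3.38 times its median over types, while Cox6b1 had 345 and 321 CPM there and 405 and 359 in macrophages. Cox7a1, the muscle form of Cox7a2, had 6.78 and 6.17 CPM in macrophages and less in each of the other 8 types. Cox4i2, the hypoxia-responsive form of Cox4i1, had 2.39 and 3.14 CPM in macrophages, and Ndufa4l2, another hypoxia-responsive gene, 0.770 and 0.343. Cox8b had fewer than 20 UMIs in all gated cells, and Cox7b2 and Cox8c had none.

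Other general members were also unevenly spread over the types. Ndufa6, an accessory subunit of complex I (chr15:82350140-82354322, minus strand), had 286 and 288 CPM in cDC2 and 254 and 253 in cDC1, and between 80.0 and 165 CPM in the other 7 types. Cox7a2l, which joins complexes III and IV into supercomplexes, had 323 and 295 CPM in cDC1, 311 and 296 in migratory dendritic cells and 276 and 379 in the non-classical monocyte gate. It had 149 and 145 CPM in macrophages and 99.1 and 141 in neutrophils. Ndufaf6, a complex I assembly factor, had 25.05 and 22.4 CPM in cDC1, and from 1.72 to 18.8 CPM elsewhere, where the highest value rests on few neutrophil UMIs.

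Macrophages and classical monocytes, from which tumour macrophages can arise, differed little in these genes. Of 93 members tested, 5 (5.38%) were at least 1.5-fold higher in macrophages in both libraries and 0 lower, against 7.40% and 3.56% of all genes, so the count of higher members was near the background. The 5 were Ndufa12 (105 against 59.1 CPM in the control library and 82.7 against 42.3 in the IL4 library), Ndufa5 (57.5 against 28.8, and 49.5 against 29.8), Ndufab1 (130 against 82.5, and 122 against 74.3), Sdhaf3 and Cox7a1. Ndufa5 and Ndufa12 are accessory subunits of complex I, and Ndufab1 is also the mitochondrial acyl carrier protein. The summed ratio was 1.13 (1.12 to 1.13) and 1.05 (1.04 to 1.05). Cycling genes were higher in macrophages too, 8 of 10, and without cells holding UMIs of at least 3 cycling genes the count of higher members was again 5.

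Migratory dendritic cells had less complex I RNA than cDC2. In both libraries 35 of 92 members (38.0%) were at least 1.5-fold lower and 1 was higher, against 25.2% and 12.2% of all genes. Complex I held 22 of the 35, out of 46 tested (47.8%), with 4 of 7 core and 15 of 31 accessory subunits. Complex V held 5 of 17, complex II 3 of 8, complex III 3 of 8 and complex IV 2 of 13. The summed ratio over all members was 0.739 (0.731 to 0.747) and 0.752 (0.745 to 0.758), and over complex I 0.606 and 0.620.

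The lower members came from every complex. Ndufa6 had 115 against 286 CPM and 98.99 against 288. Ndufs8, a core subunit with iron-sulphur clusters, had 31.5 against 73.5 and 30.1 against 66.5. Atp5g1, a gene of the membrane c-ring, had 117 against 286 and 121 against 278. In contrast Cox4i1 had 609.7 against 626 CPM and 620.0 against 635, and Uqcrh had 482 against 345 and 484 against 370. Sdhaf1 was the 1 higher member, 3.06-fold and 2.69-fold. Its opposite-strand neighbour E130208F15Rik had 13.7 and 15.04 CPM in migratory dendritic cells.

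Genes around the chain were counted in the same way, beside 25.2% of all genes lower and 12.2% higher. Of the tricarboxylic acid cycle list 7 of 14 were lower, of the mitochondrial ribosomal proteins 36 of 78 were lower and 3 higher, and of the fatty acid oxidation list 6 of 15 were lower and 1 higher. Of the hypoxia and glycolysis list 9 of 22 were lower and 2 higher, of the reactive oxygen defence list 4 of 12 were lower and 3 higher, and of the regulators of mitochondrial biogenesis 3 of 12 were lower. Of the electron carrier list 6 of 14 were lower, and of the other assembly factors 12 of 32 were lower and 1 higher. No mt- gene of 13 was apart in both libraries. Cycling genes were lower as well, 7 of 9, and without cells holding cycling UMIs the count of lower members was 34. It lay between 29 and 43 under 14 alternatives.

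Type 1 and type 2 conventional dendritic cells were alike in all but a few members. Of 92 tested, 3 were higher in cDC1 in both libraries (3.26%) and 2 lower (2.17%), against 10.6% and 9.33% of all genes. Ndufaf6 (25.05 against 6.62 CPM, and 22.4 against 7.15), Sdhd (94.0 against 59.9, and 72.1 against 45.7) and the assembly factor Ndufaf1 were higher. Cox6b2 and Sdhaf1 (26.3 against 47.8, and 32.9 against 58.1) were lower. All 10 cycling genes tested were higher in cDC1, and without cycling cells 2 members were higher.

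Neutrophils had lower levels of most members than classical monocytes. In both libraries 59 of 92 (64.1%) were at least 1.5-fold lower and 0 higher, against 23.5% and 10.6% of all genes. All 3 c-ring genes, 4 of 5 F1 subunits, 5 of 7 core and 20 of 31 accessory complex I subunits were among the 59, but only 4 of 12 assembly factors. The summed ratio was 0.600 (0.589 to 0.612) and 0.530 (0.512 to 0.548). Ndufs4, an accessory subunit needed for stable complex I, had 39.2 against 109 CPM and 30.6 against 102. Atp5c1, the rotating central stalk, had 126 against 303 and 101 against 288. Cox8a had 495 against 609.5 CPM and 550.5 against 734, and Sdhaf1 32.0 against 32.3 and 30.6 against 33.7, both within 1.5-fold.

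Other gene groups were lower in neutrophils as well. Cytosolic ribosomal proteins were lower in 74 of 87 and mitochondrial ribosomal proteins in 44 of 78. No mt- gene of 13 was apart in both libraries on the CPM of summed cells, but the median mt- share per cell was 0.263% and 0.254% of UMIs in neutrophils against 1.40% and 1.11% in classical monocytes. Of the hypoxia and glycolysis list 7 of 21 genes were higher and 0 lower. Neutrophils were also shallower, with medians of 3021 and 2470 UMIs per cell against 9718 and 8594, and their gate held 1084 and 715 CPM of macrophage markers. Within neutrophils the members' sum was 5336 and 5460 CPM in cells up to the median UMIs and 10109 and 8568 in cells above it. The part of depth and of stray RNA in the difference was not tested.

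Between T cells and NK cells, 0 of the 91 members tested were 1.5-fold apart in both libraries, against 8.76% of all genes higher and 7.13% lower. In the control library alone 9 members, Ndufab1 and Uqcr11 among them, were past 1.5-fold higher in T cells, and in the IL4 library alone Ndufb8 was. The summed ratio of T over NK cells was 1.23 (1.21 to 1.24) and 1.18 (1.17 to 1.19). The T cell gate held 735 and 895 CPM of macrophage markers, and the NK cell gate 539 and 567. Cycling cells were more common among T cells, with 152 of 345 and 254 of 607 cells, against 22 of 219 and 89 of 567 NK cells. Cycling T cells had 18072 and 18035 CPM of the members, and the other T cells 14067 and 13447. In NK cells the values were 16243 and 16860 for cycling cells and 12916 and 12647 for the others. Cycling cells also held more UMIs, with medians of 22312 and 23008 against 7456 and 7789 in T cells. The sum was higher above than below the median UMIs in T cells (17590 and 17483 against 13343 and 12768) and in macrophages (17715 and 15945 against 14780 and 13522), so depth and cycling moved with the sum in T cells, and depth in macrophages. In cDC1 of the control library the sum was 17093 and 17094 CPM below and above the median UMIs. In those of the IL4 library it was 15764.5 below and 16995 above. The part of each was not tested.

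Macrophages were also split by the summed hypoxia and glycolysis list, at 31.0 and 51.4 UMIs per 10000. The members' sum was 16167 and 14373 CPM at the lowest list levels, 17761 and 15794 in the middle and 16572 and 15343 at the highest. Ndufa4 had 399 and 274, 415 and 316, and 327 and 270 CPM in the same order. Cox4i2 had 0.266 and 0.940 CPM, 1.09 and 1.40, and 5.38 and 7.11, from 1 and 5, 5 and 9, and 25 and 41 UMIs. Ndufa4l2 had at most 2.15 CPM in any of them. The low-expressed Cox4i2 thus had its highest level where the list was highest in both libraries, while the sum had no such order. The classes are ranges of a score and not cell types.

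The comparison of the IL4 with the control library asks whether macrophages activated beforehand leave the tumour's leukocytes with other levels of these genes. The gates rest on marker genes alone, so transferred macrophages were not told apart from those of the recipient mice. In macrophages most members were slightly lower in the IL4 library. Of 94 tested, 2 (2.13%) were 1.5-fold apart, 1 in each direction, against 8% of all 12767 genes tested. Their median log2 ratio was -0.16, against -0.09 over all genes, so most genes tested in this gate lay below 0 as well. Of the members, 86 of the 94 lay below 0. The IL4 sum was 0.902 (0.897 to 0.907) of the control sum.

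All 5 complexes had a lower sum in macrophages of the IL4 library, with log2 ratios of -0.17 for complex I, -0.20 for complex II, -0.18 for complex III, -0.09 for complex IV and -0.18 for complex V. Uqcrb, a subunit at the ubiquinone-binding side of complex III (chr13:66900617-66905378, minus strand), had 236 CPM in the control and 170 CPM in the IL4 library, a ratio of 0.720 (0.684 to 0.757). Ndufa4 had 379 and 288 CPM, a ratio of 0.761. Sdhd had 67.2 and 49.0 CPM, Ndufb6 100.4 and 73.8, and Ndufaf4, a complex I assembly factor, 20.9 and 15.02. None of these 5 passed 1.5-fold. Cox8a was on the other side with 607 CPM (594 to 621) and 700.5 (688 to 713), a ratio of 1.15 (1.12 to 1.19), the assembly factor Ndufaf3 had 18.6 and 22.2 CPM, and Ndufb9, which shares exon bases with Gm49356 on its strand, 176 and 183 CPM. Cox6a2 and Cox6b2 were the only members past 1.5-fold, both at low counts: 0.924 and 2.63 CPM from 12 and 46 UMIs, and 4.93 and 2.40 CPM from 64 and 42 UMIs. With a minimum of 200 UMIs, 0 members passed.

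**Figure D4:**
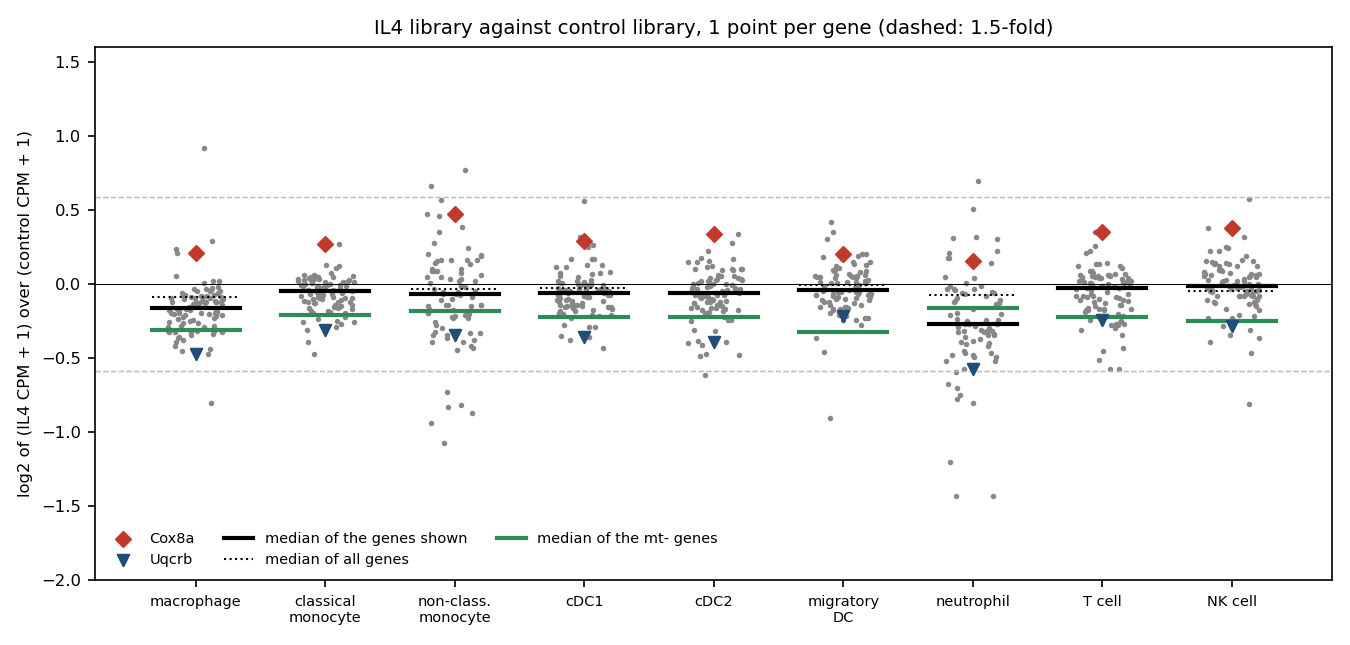
Log2 ratio of IL4 over control (vertical axis, CPM + 1) for every tested member (points) in each type, with dashed 1.5-fold lines and horizontal bars for the medians of the members (black), all genes (dotted) and mt- genes (green). Diamonds mark Cox8a, above 0 in all 9 types, and triangles Uqcrb, below 0 in all 9. Macrophage points cluster below 0 (median -0.16), and neutrophil and non-classical monocyte points, from the fewest UMIs, spread the most.

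The lists around the chain had similar medians in macrophages: -0.19 for the tricarboxylic acid cycle (14 genes), -0.16 for electron carriers (14), -0.17 for fatty acid oxidation (15), -0.14 for mitochondrial ribosomal proteins (78), -0.19 for other assembly factors (33) and -0.26 for regulators of mitochondrial biogenesis (14). The hypoxia and glycolysis list had -0.22, with 3 of 22 genes apart, all lower. Reactive oxygen defence genes had 0.03, with 0 of 12 apart, and cytosolic ribosomal proteins -0.07. The dissociation stress list moved the other way, with a median of 0.36 over 12 genes and a sum of 18821 CPM in the control and 21466 CPM in the IL4 library. The macrophage gate's own markers summed to 10067 and 10575 CPM, classical monocyte markers to 2238 and 2113, and the cells had medians of 10425 and 9126 UMIs. The part of these in the result was not tested. Within Xist-only macrophages the members' summed log2 ratio was -0.15 and within Y-only macrophages -0.14.

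In 6 other types at most 1 member was apart between the libraries. Classical monocytes had 0 of 93 members apart, against 5.03% of genes, and a median log2 ratio of -0.05. In cDC1 the count was 0 of 92 against 9.65%, and in T cells 0 of 92 against 6.77%. In cDC2 it was 1 of 92 against 8%, Ndufaf1 with 5.16 and 3.03 CPM. Migratory dendritic cells had 1 of 92 against 10.4%, Ndufaf6 with 4.09 and 1.72 CPM from 17 and 11 UMIs. NK cells had 1 of 92 against 11.1%, the assembly factor Ndufaf5 with 10.1 and 5.34 CPM. The summed log2 ratio lay between -0.04 and 0.03 in these 6 types.

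Among members with at least 50 UMIs, the ends of the distribution in these types were again small. Cox8a had the highest ratio in classical monocytes, cDC2, T cells and NK cells. In classical monocytes Ndufa12 had the lowest, with 59.1 and 42.3 CPM, and in cDC1 the assembly factor Ndufaf2, with 23.3 and 17.02. Sdhaf1 had 26.3 and 32.9 CPM in cDC1 and 47.8 and 58.1 in cDC2. In migratory dendritic cells Ndufa9, an accessory subunit of complex I, had the highest ratio, with 13.2 and 18.01 CPM. The 5 lowest members of NK cells were all complex I assembly factors, Ndufaf5, Ndufaf7 (23.5 and 16.7 CPM), Ndufaf6, Ndufaf3 and Ndufaf2, and Ndufaf5 had 13.1 and 8.46 CPM in T cells. Of the values in this range, those of Ndufaf1 in cDC2 and Ndufaf5 in NK cells passed 1.5-fold.

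The 2 gates with the fewest UMIs had more members apart, below the share of all genes. The non-classical monocyte gate had 8 of 83 (9.64%) against 22.5%, with Ndufaf7 and Ndufaf8 higher and Ndufv1, Ndufa5, Ndufs1, Ndufs6, Ndufa11 (109.9 and 61.3 CPM) and Ndufb3 (97.2 and 54.8) lower. All 8 are complex I genes, and complex I holds 47 of the 98 members. In this gate the count of members apart ran from 0 to 14 over 12 alternatives. Neutrophils had 10 of 82 (12.2%) against 27.1%, with Ndufaf7 higher and Ndufa1, Ndufa9, Ndufb6, Ndufb8, Ndufc1, Ndufc2, Ndufv1, Sdhb (66.3 and 28.2) and Atp5b (147 and 87.0) lower. Their median log2 ratio was -0.27 over members and -0.08 over all genes. Ndufa9 and Ndufv1 each had 26 control and 3 IL4 UMIs in neutrophils, and Ndufb8 shares exon sequence with Gm20538 on its strand, so its value is uncertain. In the same cells 10 of 21 genes of the hypoxia list and all 5 cycling genes tested were lower, and the count of members apart ran from 1 to 18 over 12 alternatives.

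Small differences recurred across types for single members. Of 81 members tested in all 9 types, Cox8a alone was higher in the IL4 library in every type, with log2 ratios from 0.15 to 0.47. It had 609.5 and 734 CPM in classical monocytes, 589 and 719 in cDC1, 586 and 740.5 in cDC2, 613 and 782 in T cells and 547 and 712 in NK cells. In contrast 13 members were lower in every type: Ndufa1, Ndufb3, Ndufb6, Ndufc1, Sdhc, Sdhd, Uqcrb, Cox7b, Atp5b, Atp5f1, Atp5j, Atp5j2 and Atp5mpl. These are 16.0% of the 81 members, and Cox8a is 1.23%, beside 5.83% of the 5622 genes tested in all 9 types that were lower in every type and 4.75% that were higher. Uqcrb had log2 ratios from -0.58 to -0.22. Neither Cox8a nor Uqcrb passed 1.5-fold in any type. All types came from the same pair of libraries, so their shared direction is not independent from type to type.

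The mitochondrially encoded genes differed between the libraries by more than the nuclear members. In macrophages the 13 mt- genes summed to 15216 CPM in the control and 11560 CPM in the IL4 library, a log2 ratio of -0.40 against -0.15 for the nuclear members. mt-Co3, a catalytic complex IV subunit, had 1878 and 1236 CPM, and mt-Nd3, of complex I, 38.7 and 21.7, and these 2 passed 1.5-fold. The mt- sum was lower in the IL4 library in all 9 types, with log2 ratios from -0.40 to -0.14, while the nuclear sum lay between -0.22 and 0.03. Neutrophils were the exception in size, with -0.14 for mt- and -0.22 for nuclear genes.

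The balance of the genomes also differed by type. The mt- sum was 0.687 and 0.582 of the nuclear sum in cDC1, the lowest of the 11 types in both libraries, 0.902 and 0.760 in macrophages and 0.939 and 0.787 in T cells. In neutrophils it was 1.18 and 1.24, the highest of the 9 compared types over summed cells. It was 1.20 and 1.33 in neutrophils above the median UMIs, but 1.06 and 0.892 in those up to it, where T cells had 1.255 and 1.06 and macrophages 1.24 and 1.03. In the small B cell and plasmacytoid gates it was 1.44 and 1.17, and 1.21 and 1.01.

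**Figure D5:**
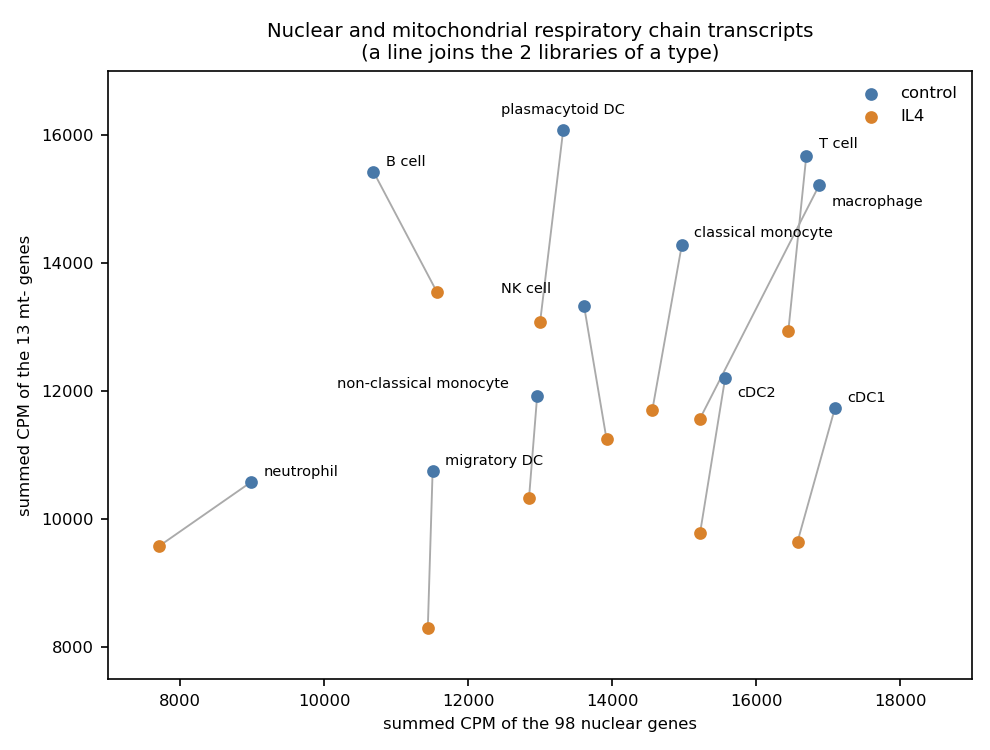
Summed CPM of the 98 nuclear members (horizontal axis) and of the 13 mt- genes (vertical axis) in each type, with a line joining the control and IL4 value. In every type the IL4 value is the lower one on the mt- axis, and cDC1 has the lowest mt- level relative to its nuclear level.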

How the data were processed

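Gene-by-cell matrices of 2 libraries were used, 1 per group. The deposited values are raw UMI counts per gene and barcode, made by the authors with Cell Ranger 7.2.0 on mm10, per the submitters' processing notes. Members, lists and comparisons were chosen with earlier results of these data known, and the gate levels were set after the values were seen.

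Barcodes with at least 500 UMIs, 250 genes and at most 10% mt- UMIs were kept. A barcode entered a type with at least 4 or 5 of that type's 8 markers and a marker level of 5 to 40 UMIs per 10000, and barcodes passing no gate (3977 and 5849) or several (568 and 940) were left out. Within 25% of the gate level lay 547 and 815 macrophage barcodes (control and IL4 library). No doublet caller was run, and possible doublets were addressed by leaving out the 5% of cells with the most UMIs. Member UMIs in gated cells numbered 831523 and 1150532. Ratios are log2 of (CPM + 1), for genes with at least 20 UMIs over both libraries, or in each library's pair of types when types were compared. Poisson and Clopper-Pearson intervals at 95% cover counting error only. Cycling cells held UMIs of at least 3 of 10 cycling genes.

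Members named were those with the most UMIs of each complex in macrophages, those with extreme ratios and at least 50 UMIs, those at least 3-fold above their median over types, and the tissue isoforms, succinate dehydrogenase subunits and mt- genes, and members past 1.5-fold. Other members were named after their values were seen. Coordinates are those of GENCODE M21 on mm10. Python 3.11.15, numpy 2.4.6, scipy 1.17.1, pandas 2.3.3 and matplotlib 3.10.9 were used, and the scripts were tested on simulated data. Alternatives covered filters, gates, scaling, cell weights, cycling cells, Xist-only and Y-only barcodes, pseudocount and UMI minimum.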

Additional observations from a re-analysis of the deposited data

Results flagged for a closer look

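In 3 types the members' summed log2 ratio of IL4 over control had one sign among Xist-only barcodes and the other among Y-only barcodes. It was -0.071 and 0.0019 in classical monocytes, -0.045 and 0.034 in migratory dendritic cells, and 0.035 and -0.092 in T cells, in that order. All 6 values are small. With 1 library per group the difference between the barcode classes was not tested. In macrophages both classes lay below 0, at -0.15 and -0.14.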

How the results depend on the processing

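In macrophages the median log2 ratio of IL4 over control stayed between -0.18 and -0.13 under all alternatives run, and the summed ratio (-0.149) moved beyond its counting interval to -0.167 when mt- and cytosolic ribosomal genes were left out of the scaling and to -0.169 with cells weighted equally. The count of macrophage members 1.5-fold apart (2) was 1 at doubled gate levels, 1 among barcodes with Xist but no Y-linked UMIs and 5 among those with the reverse, and 0 with a pseudocount of 10 CPM or a minimum of 200 UMIs. The log2 ratio of the NK over the macrophage sum in the control library (-0.310) was -0.357 at doubled gates, -0.226 with the other scaling, -0.363 with equal weights, -0.356 without cycling cells and -0.368 without the 5% deepest cells. In the IL4 library (-0.128) it was -0.164, 0.0011, -0.194, -0.241 and -0.151, so its direction there rests on the scaling. The log2 ratio of Ndufb8 in neutrophils changed sign to 0.024 with equal weights, and that of Ndufaf6 in migratory dendritic cells to 0.85 in Y-only barcodes. The cause was not tested for any of these.

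Of 233 single ratios past 1.5-fold, 231 kept their sign under every alternative run and 165 stayed past 1.5-fold. Most of the 233 are ratios between types, where a member counts once per library, and few are IL4 over control. Of 21 summed ratios 14 kept their sign. Those that did not were NK over macrophages in the IL4 library and IL4 over control in NK cells, T cells, both monocyte gates, cDC2 and migratory dendritic cells. The IL4 over control log2 ratios among them were close to 0. The NK over macrophage value was not, at -0.128 (-0.140 to -0.117). Members lower in neutrophils than in classical monocytes (59) numbered 48 to 74. Cox8a stayed above 0 in all 120 values recomputed over types and alternatives, and Uqcrb in 0 of 120. Alternatives with fewer than 50 cells in a library gave no value (363 values). No paired analysis was possible because there was 1 library per group. Depth limits the neutrophil and non-classical monocyte gates most, where ratios rest on the fewest UMIs.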
